A study of Homo sapiens with 6 samples.

Results

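Nuclear and regulatory long noncoding RNAs were examined in MDA-MB-231 cells, a human triple-negative breast cancer line, after treatment with nitidine chloride (NCD), a plant alkaloid. The 9 genes MALAT1, NEAT1, NORAD, LINC-PINT, PVT1, OIP5-AS1, TUG1, MEG3 and H19 were chosen by name and matched to the files by Ensembl identifier, out of 63241 genes in the count files. Cells that the labels give as wild type received 5 μM NCD or the solvent alone, 0.1% DMSO, for 24 h. Total RNA was extracted, and 3 libraries of each group were sequenced (DMSO 1 to 3 and NCD 1 to 3). The study's methods do not say whether poly(A) RNA was selected, and the levels given below depend on that step. The free-text descriptions of NCD 2 and NCD 3 give other cell line numbers, whereas the cell line field of all 6 libraries reads MDA-MB-231.

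Long noncoding RNAs act without being translated. Some stay in the nucleus and build or decorate nuclear bodies, as NEAT1 does for paraspeckles and MALAT1 for splicing speckles. Others bind and occupy proteins or small RNAs in the cytoplasm, as NORAD does with Pumilio proteins. A further group, H19 and MEG3 among them, comes from imprinted clusters, where it is transcribed from the maternal copy only.

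Library totals ran from 18223594 to 21629653 expected counts, that is, read numbers estimated per gene by the authors. Levels are given below as CPM, counts scaled to a common library size after correction by TMM, a method that sets the bulk of genes equal between libraries. Of the markers of the line, VIM, CD44, EGFR, AXL and CAV1 were all detected, VIM at 3056 ± 100.1 CPM with DMSO (SD, n = 3). With NCD, EGFR, CD44 and AXL fell by 2.61, 1.82 and 1.10 on the log2 scale to group means of 27.9, 277 and 399 CPM, while CAV1 and VIM had log2 fold changes of -0.83 and -0.21. The oestrogen receptor gene ESR1 had at most 7 counts, PGR at most 3 and the E-cadherin gene CDH1 at most 4 in any library. GATA3 was present at 6.12 ± 0.302 CPM. Markers of blood, vessel and liver cells (PTPRC, CD3E, PECAM1, ALB) were at or near 0, with at most 21 counts. A gene was called when its Benjamini-Hochberg adjusted p in edgeR's quasi-likelihood test was below 0.05 and its absolute log2 fold change exceeded 1. Nothing in the labels says how far the 3 libraries of a group come from separate cultures, so p-values measure the spread between these samples. In bulk RNA, fewer cells of a type and less RNA per cell cannot be told apart.

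Of the 9 long noncoding RNAs, 7 had enough counts to be tested, among 15295 tested genes. With NCD, 2 of the 7 were called, LINC-PINT and PVT1, both lower, against 31.0% of all tested genes called (13.5% higher and 17.5% lower). An adjusted p below 0.05 at any fold was reached by 3 of the 7, the third being OIP5-AS1, which was higher, against 69.3% of all genes. The same 3 were the ones whose CPM did not overlap between the groups, against 72.6% of all genes. The median log2 fold change over the 7 was -0.31 and the range -2.14 to 0.36, beside a median of 0.04 over all tested genes and of 0.11 over the 1647 tested genes annotated as long noncoding. The abundant nuclear RNAs MALAT1 and NEAT1 and the RNAs NORAD and TUG1 were not called.

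**Figure D1:**
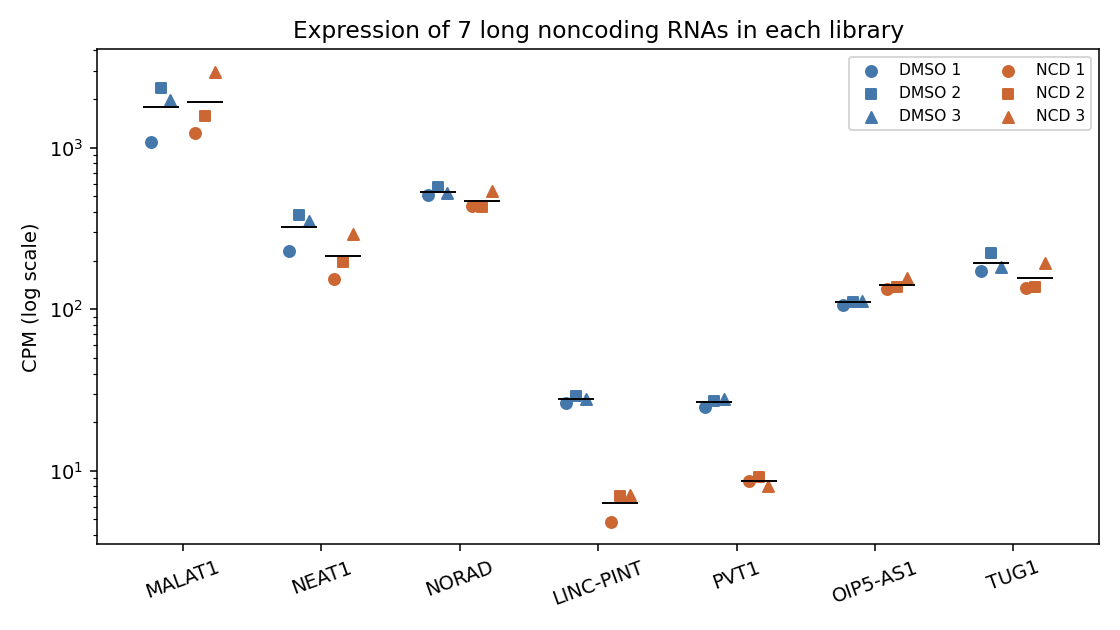
CPM on a log axis for the 7 tested long noncoding RNAs, with each library as a point (blue DMSO, orange NCD, symbol by replicate number) and the group mean as a line. The groups are apart for LINC-PINT, PVT1 and OIP5-AS1 and overlap for MALAT1, NEAT1, NORAD and TUG1.

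**Figure D2:**
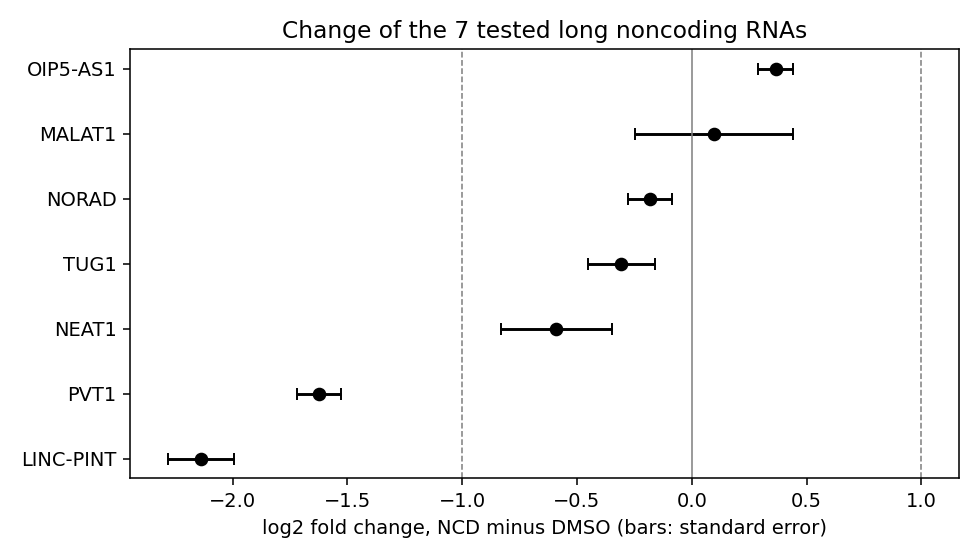
Log2 fold change (NCD minus DMSO) of each tested long noncoding RNA with its standard error from edgeR over 3 against 3 libraries. Dashed lines mark the fold threshold of 1, which LINC-PINT at -2.14 and PVT1 at -1.62 passed.

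MALAT1 (ENSG00000251562, chr11:65497688-65506516, plus strand, GRCh38) gives a mostly unspliced nuclear RNA found at splicing speckles. Its level was 1077, 2329 and 1963 CPM in DMSO 1, 2 and 3, and 1238, 1567 and 2943 CPM in NCD 1, 2 and 3. The highest library of each group had more than double the lowest, and the groups overlapped. With NCD the log2 fold change was 0.10 ± 0.34 (SE), with an adjusted p of 0.811 by edgeR. Its sign turned when 1 library was left out, to -0.19 without DMSO 1 and to -0.37 without NCD 3 (adjusted p = 0.608 and 0.235 by edgeR), so no direction can be given for MALAT1. MALAT1 took 0.0981% to 0.321% of all counts of a library.

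NEAT1 (ENSG00000245532, chr11:65422774-65445540, plus strand) is the scaffold on which paraspeckles form, and lies on the same strand as MALAT1. It was at 229, 386 and 351 CPM with DMSO and at 154, 197 and 291 CPM with NCD. NCD 1 and NCD 2 lay below all DMSO libraries, and NCD 3 lay above DMSO 1. The log2 fold change of -0.59 ± 0.24 (SE) had an unadjusted p of 0.0392 and an adjusted p of 0.0559 in the edgeR fit across all genes. The adjusted p by edgeR was 0.00280 without NCD 3 and 0.0108 without DMSO 1, and the log2 fold change -0.89 and -0.81, whereas without DMSO 2 the adjusted p was 0.166. Counts are given per gene, so the short and the long isoform of NEAT1, of which only the long one builds paraspeckles, were not separated.

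TUG1 (ENSG00000253352, chr22:30969245-30979395, plus strand) is an RNA of nucleus and cytoplasm transcribed away from the gene MORC2. Its values were 173, 222 and 183 CPM with DMSO and 135, 137 and 194 CPM with NCD. NCD 3 again stood above the other NCD libraries and within the DMSO range. Its log2 fold change was -0.31 ± 0.15 (SE) with an adjusted p of 0.0917 by edgeR, and -0.33 with 0.0358 by DESeq2. Without NCD 3 it was -0.51 with an adjusted p of 0.00127 by edgeR, without DMSO 2 it was -0.20 (adjusted p = 0.264), without NCD 2 -0.22 (0.257) and with libraries scaled by their totals -0.11 (0.567).

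The Pumilio-binding RNA NORAD (ENSG00000260032, chr20:36045622-36050960, minus strand) is a single-exon transcript. Its known partners, Pumilio proteins such as PUM2, repress messenger RNAs that carry the motif TGTANATA. The transcript of 5339 bases in GENCODE 29 held 15 copies of this motif on its own strand, 2.81 per kb. Of 14690 longest transcripts of tested genes, 31.5% held the motif at all, 0.0408% held as many and 0.0340% held it as densely. Among the 15 copies, 10 read TGTATATA, 4 read TGTAAATA and 1 read TGTACATA. The 6 windows below are shown because they carry the sites by which NORAD is known, and because the bases beside the motif recur from site to site. Capitals mark the motif, and positions count from the first base of the transcript.
NORAD bases 1140 to 1147: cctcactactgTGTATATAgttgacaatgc
NORAD bases 2972 to 2979: caaccctactgTGTATATAgcggacaaact
NORAD bases 3593 to 3600: caatgctactgTGTATATAatggaaaactt
NORAD bases 1241 to 1248: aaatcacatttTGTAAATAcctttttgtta
NORAD bases 1825 to 1832: aaataccacttTGTAAATAtctttttgcta
NORAD bases 2466 to 2473: gaataacacttTGTAAATAgcttttaaaaa
Of the other long noncoding RNAs, NEAT1 held 6 copies in 22743 bases, TUG1 2, OIP5-AS1 1 and MEG3 1, and none was found in the longest transcripts of MALAT1, LINC-PINT, PVT1 and H19.

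NORAD was at 507, 569 and 522 CPM with DMSO and at 438, 428 and 542 CPM with NCD. NCD 1 and NCD 2 lay below the DMSO libraries and NCD 3 among them. The log2 fold change of -0.18 ± 0.10 (SE) had an adjusted p of 0.122 by edgeR, was 0.02 when libraries were scaled by their totals alone, was -0.31 with an adjusted p of 0.00292 when NCD 3 was left out, and was -0.12 with an adjusted p of 0.360 when NCD 2 was left out. Among its protein partners, PUM2 fell from 179.9 ± 12.1 to 84.6 ± 13.2 CPM (SD, n = 3), a log2 fold change of -1.09 ± 0.11 (SE). RBMX, a splicing regulator that also binds NORAD, fell by 1.42 on the log2 scale.

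OIP5-AS1 (ENSG00000247556, chr15:41283990-41309737, plus strand), the human counterpart of the fish RNA cyrano, is known for a long match to the microRNA miR-7, whose decay it directs. The mature miR-7-5p of RefSeq and the site with the longest match in the transcript OIP5-AS1-201 of GENCODE 29 are shown because this pairing is the best known sequence feature of the gene. Capitals mark the seed in the microRNA, and in the transcript both the match to the seed and the further run of paired bases.
miR-7-5p: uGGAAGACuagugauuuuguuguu
OIP5-AS1 site: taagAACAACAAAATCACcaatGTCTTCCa
The site has 7 bases paired to the seed at transcript bases 2887 to 2893, 4 bases that lie between, and then 14 paired bases. The transcript held 3 seed matches in all, the other 2 with further runs of 5 and 3 bases, and MEG3 held 2. A match to the seed was present in 26.8% of the longest transcripts of tested genes. The abundance of miR-7 was not measured in these libraries.

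OIP5-AS1 was the one tested long noncoding RNA of the 9 that was higher with NCD in every library. It was at 107, 111 and 113 CPM with DMSO and at 133, 137 and 157 CPM with NCD. All NCD libraries lay above all DMSO libraries, for which the exact permutation test gave p = 0.1, the smallest that 3 against 3 allows. The log2 fold change was 0.36 ± 0.07 (SE), or 1.29-fold, with an adjusted p of 0.00193 by edgeR, so that it passed the test on p but not the fold threshold, and it stayed between 0.27 and 0.56 over 18 alternative settings. OIP5, the centromere gene on the opposite strand whose end overlaps that of OIP5-AS1 by 470 bases, went from 18.7 ± 2.75 to 28.8 ± 2.30 CPM (SD, n = 3), a log2 fold change of 0.62 ± 0.12 (SE) with an adjusted p of 0.00126 by edgeR. A second gene model on the strand of OIP5-AS1, ENSG00000285920, overlaps nearly its whole span, had 11 to 35 counts per library and was called higher at a log2 fold change of 1.09. Whether counting used the strand is not given in the sources used here, so reads from the shared stretches cannot be assigned to 1 of the genes. The neighbouring gene CHP1 had a log2 fold change of -0.09 ± 0.06 (SE).

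LINC-PINT (ENSG00000231721, chr7:130938963-131110176, minus strand), a p53-induced RNA that interacts with the Polycomb complex PRC2, fell the most. It was at 26.4, 29.1 and 27.9 CPM in DMSO 1 to 3 (439, 514 and 510 counts) and at 4.84, 7.02 and 7.13 CPM in NCD 1 to 3 (111, 136 and 153 counts). Every NCD library lay far below every DMSO library, and NCD 1 was the lowest. This gave a log2 fold change of -2.14 ± 0.14 (SE), 4.40-fold lower, with an adjusted p of 1.7e-06 by edgeR. It stayed between -2.25 and -1.94 over 18 alternative settings. The gene spans 171.2 kb. GENCODE 29 also uses the name for a second gene model farther along the chromosome, which was not analysed here.

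The start of LINC-PINT faces that of MKLN1, which encodes a subunit of the CTLH ubiquitin ligase and is transcribed the other way. The annotated genes overlap by 81 bases, and their promoter windows in RefSeq (GRCh38.p14, 250 bases before to 50 after the start) share 268 bases. The LINC-PINT window at chr7:131109876-131110175, minus strand, is shown because both genes of this pair fell. Capitals mark GGGCGG or its reverse complement, the GC box.
LINC-PINT promoter: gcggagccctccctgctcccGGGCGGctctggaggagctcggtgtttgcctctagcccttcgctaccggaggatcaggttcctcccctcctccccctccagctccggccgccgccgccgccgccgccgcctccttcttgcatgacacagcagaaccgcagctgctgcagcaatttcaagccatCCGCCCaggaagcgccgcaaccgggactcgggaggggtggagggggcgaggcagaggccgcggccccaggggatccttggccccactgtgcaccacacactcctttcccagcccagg
This window held 2 such boxes, a motif found on either strand in 45.0% of 35116 promoter windows, and no TATAAA (11.5%), CCAAT (34.6%), CACGTG (7.26%), TGACGTCA (1.85%) or TGAGTCA (4.95%), each searched on both strands. RefSeq also gives LINC-PINT other starts, and the window at chr7:130913261-130913560 held 1 CCAAT and 1 CACGTG. MKLN1 was at 64.4 ± 7.64 CPM with DMSO and at 16.9 ± 3.64 CPM with NCD (SD, n = 3). Its log2 fold change of -1.93 ± 0.15 (SE) was close to that of LINC-PINT. On the other side the nearest tested protein-coding gene, COPG2, at 270.2 kb, fell by 2.03 on the log2 scale. MKLN1 spans 386.5 kb and COPG2 162.5 kb, and like LINC-PINT they belong to decile 10 of tested genes by span, in which the median log2 fold change was -2.09 and 79.2% of genes were called lower.

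Of the PRC2 subunits, which bind many long noncoding RNAs, none was called. EZH2, the methyltransferase, had a log2 fold change of -0.14 ± 0.06 (SE), SUZ12 of -0.20 ± 0.13 and EED of -0.31 ± 0.06, and EED alone of the 3 had an adjusted p below the threshold (0.00181 by edgeR).

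PVT1 (ENSG00000249859), the noncoding neighbour of the oncogene MYC and a frequent partner in its amplification, fell as well. The 3 DMSO libraries had 24.9, 27.1 and 27.7 CPM (413, 478 and 506 counts) and the 3 NCD libraries 8.65, 9.21 and 8.02 CPM (198, 178 and 172 counts). The values lay close together within each group and far apart between groups. The log2 fold change of -1.62 ± 0.10 (SE), 3.08-fold lower, had an adjusted p of 7.5e-07 by edgeR and stayed between -1.69 and -1.43 over 18 alternative settings. MYC, which starts upstream of PVT1 and ends 53.1 kb before it, was at 130.0 ± 3.45 CPM with DMSO and at 70.1 ± 3.93 CPM with NCD (SD, n = 3), a log2 fold change of -0.89 ± 0.06 (SE) with an adjusted p of 2.2e-06 by edgeR that did not pass the fold threshold. CYRIB, the nearest tested protein-coding gene on the other side at 1738 kb and also in decile 10 by span, fell by 1.31 on the log2 scale.

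The RNAs that fell were the ones with long genes. LINC-PINT and PVT1, which spans 306.7 kb, both belong to decile 10 of tested genes by span (153.1 kb and more), in which the median log2 fold change was -2.09 and 79.2% of genes were called lower. The other 5 tested long noncoding RNAs span 5.34 to 25.7 kb, in deciles of span whose medians ran from 0.32 to 0.41. NEAT1, TUG1, NORAD and MALAT1 lay below the medians of their deciles and OIP5-AS1 at 0.36 beside a median of 0.32. The part of gene span in the values of the long noncoding RNAs was not tested.

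**Figure D3:**
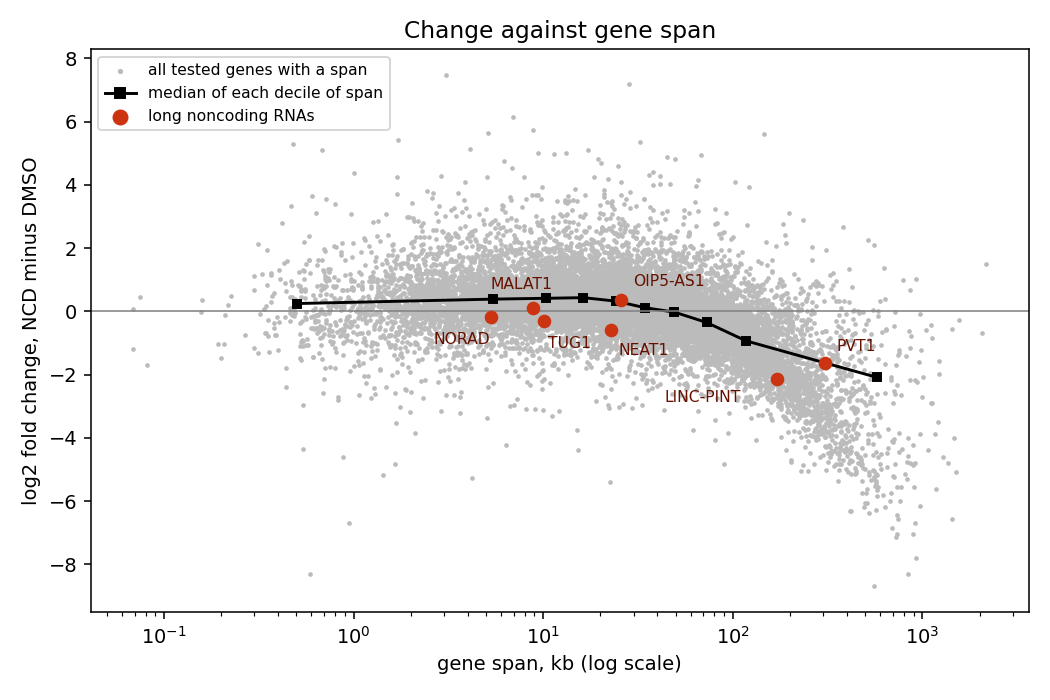
Log2 fold change (NCD minus DMSO) of every tested gene with an annotated span (grey) against its span in kb on a log axis, with the median of each decile of span (black squares) and the 7 tested long noncoding RNAs (red). LINC-PINT and PVT1 sit in the longest decile, with its median of -2.09, and the 5 shorter genes sit between -0.59 and 0.36.

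H19 (ENSG00000130600, chr11:1995176-2001470, minus strand), the maternally expressed RNA of the imprinted IGF2 cluster and host of a microRNA, was barely detected. It had 0, 0 and 3 counts with DMSO and 4, 10 and 6 counts with NCD. All NCD libraries were above all DMSO libraries, but at a level too low to pass the filter. Summed over libraries, 3 counts stood against 20, a ratio of CPM of 5.50 (exact 95% interval 1.63 to 28.9, which covers counting error only). When no filter was used, edgeR gave a log2 fold change of 2.36 and an adjusted p of 0.0425. That fit also gave MALAT1 a standard error of 0.09 instead of 0.34 for the same libraries, so its p-values need caution. Its neighbour IGF2, a growth factor of fetal tissue, was higher as well. So was CDKN1C, a cell cycle inhibitor that lies farther off, beyond KCNQ1OT1. IGF2 rose from 0.646 ± 0.0878 to 3.14 ± 0.761 CPM (SD, n = 3), with a log2 fold change of 2.27 ± 0.28 (SE). It had only 9 to 13 counts per library with DMSO and 53 to 91 with NCD. CDKN1C rose from 2.90 ± 0.368 to 6.85 ± 0.849 CPM, with a log2 fold change of 1.24 ± 0.16 (SE). KCNQ1OT1, the antisense RNA of the adjoining imprinted domain, had a log2 fold change of 0.12 ± 0.33 (SE).

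MEG3 (ENSG00000214548, chr14:100779410-100861031, plus strand), a growth-restraining RNA of the imprinted DLK1 cluster, had 0 counts in all 6 libraries. A count of 0 allows a level of up to 0.131 to 0.181 CPM, depending on the library. The protein-coding genes DLK1, RTL1 and DIO3 and the noncoding MEG9 of the same cluster also had 0 counts throughout, and MEG8 had at most 4. Apart from these few counts of MEG8, the listed genes of the cluster were not detectable at this depth.

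Per kb of all annotated exons of a gene, merged, the tested long noncoding RNAs in DMSO cells had an order without overlap between neighbours. The order depends on the length used. Merged exons and longest transcript hold 5493 and 1699 bases for PVT1, 9030 and 3505 for LINC-PINT, and 12673 and 8829 for OIP5-AS1. For TUG1 they hold 10151 and 7469 bases, and they are closer for MALAT1, NEAT1 and NORAD. Isoforms were not separated, those of NEAT1 included, so the order per transcript was not tested. The level in CPM per kb of exon was 203 for MALAT1 (lowest 122, highest 264), 99.8 for NORAD (94.9 to 107), 18.96 for TUG1 (17.0 to 21.8) and 14.1 for NEAT1 (10.0 to 16.9). OIP5-AS1 followed at 8.71, PVT1 at 4.84 and LINC-PINT at 3.08 CPM per kb. With NCD the order changed at 1 place, where OIP5-AS1 at 11.2 (10.5 to 12.4) came above NEAT1 at 9.40 (6.78 to 12.8), and these 2 ranges overlapped.

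MALAT1 and NEAT1 were also the most variable within groups. The highest library of a group exceeded the lowest by 2.16-fold for MALAT1 with DMSO and by 2.38-fold with NCD, ratios matched by 0.353% and 0.778% of the 11049 genes at 5 CPM or more. For NEAT1 the ratios were 1.69 and 1.88, matched by 2.17% and 2.26%, and the median gene had a ratio of 1.15 in both groups. In MALAT1, NEAT1, NORAD, TUG1 and LINC-PINT, DMSO 1 was the lowest and DMSO 2 the highest of their group and NCD 3 the highest of its group, an order seen in 19.4% of genes. By exon length, DMSO 2 and NCD 3 lay farthest from their group means. Genes of the longest decile deviated in DMSO 2 and NCD 3 by a median of 0.13 and 0.12 on the log2 scale. Genes of the shortest decile deviated by -0.13 in both. DMSO 1 lay nearly as far the other way, at -0.09 for the longest and 0.11 for the shortest decile. MALAT1 and NEAT1 themselves deviated more in DMSO 1 (-0.66 and -0.46) than in DMSO 2 (0.45 and 0.30). An alternative added after seeing the data left out DMSO 2 and NCD 3. Of the tested RNAs it called LINC-PINT and PVT1 alone, at -2.22 and -1.57 on the log2 scale. NEAT1 at -0.74, NORAD at -0.25, TUG1 at -0.39 and OIP5-AS1 at 0.28 missed only the fold threshold. Their adjusted p by edgeR was 0.00024, 0.00029, 4.6e-06 and 0.00016. With all 6 libraries, the adjusted p of NEAT1, NORAD and TUG1 was above 0.05. MALAT1 was at -0.13 (adjusted p = 0.537 by edgeR). Since the libraries left out were chosen from these data, these p-values need caution. The part of the deviations by exon length in the values of MALAT1 and NEAT1 was not tested.

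**Figure D4:**
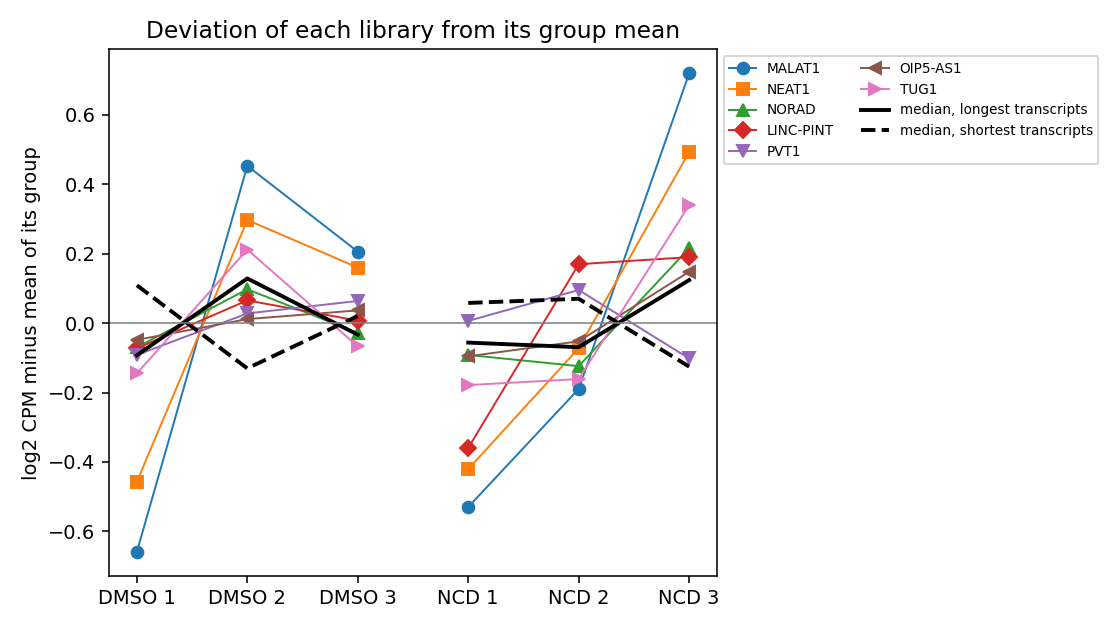
Deviation of log2 CPM from the mean of its group, by library, for the 7 tested long noncoding RNAs (coloured) and as the median over the longest and the shortest decile of genes by exon length (black, solid and dashed). MALAT1 moves most, and the long-transcript median is highest in DMSO 2 at 0.13 and NCD 3 at 0.12.

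The protein-coding genes on either side of the shorter long noncoding genes were mostly changed by less than the fold threshold. FRMD8, 9.25 kb from NEAT1 on the side away from MALAT1, had a log2 fold change of 0.73 ± 0.08 (SE) with an adjusted p of 3.2e-05 by edgeR, beside -0.59 for NEAT1 and 0.10 for MALAT1. CNBD2 and EPB41L1 beside NORAD had log2 fold changes of 0.74 ± 0.22 and -0.21 ± 0.07 (SE). MORC2, whose start lies 0.947 kb from that of TUG1, had a log2 fold change of -0.28 ± 0.11 (SE) beside -0.31 for TUG1, and SMTN on the other side -0.86 ± 0.07.

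The mRNAs of 4 lists of proteins that build nuclear bodies or handle these RNAs were counted in the same fit, and their shares called lower stand beside the 17.5% of all tested genes called lower. Of 24 paraspeckle protein genes, all tested, 5 (20.8%) fell and none rose, a share near that background, and the median log2 fold change was -0.39 beside 0.04 over all genes. SFPQ, an essential protein bound to NEAT1, fell from 403 ± 6.97 to 116 ± 5.92 CPM (SD, n = 3), a log2 fold change of -1.79 ± 0.06 (SE). The splicing regulators HNRNPA1 and DAZAP1 fell by 1.15 and 1.04 on the log2 scale. The other 2 called, named after their values were seen, were PSPC1, a partner of SFPQ, at -1.27 and the remodeller SMARCA4 at -1.02. Scaling by library totals left 2 of the 5 calls and upper-quartile scaling 3.

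Of 20 nuclear speckle protein genes, 4 fell and none rose, also a share near the 17.5% of all tested genes, with a median of -0.38. SRSF1 and SRSF2, splicing factors of the speckles where MALAT1 resides, fell by 1.33 and 1.09 on the log2 scale, and SF3B1, a component of the spliceosome, by 1.42. The fourth, THOC2 of the mRNA export complex, named after its values were seen, was at -1.88. Of 23 factors of nuclear RNA decay and 3' end formation, 3 (13.04%) fell and none rose, a share below the 17.5% of all tested genes, with a median of -0.24. These were MTREX, the helicase that feeds RNA to the nuclear exosome, at -1.85, the exonuclease XRN2 at -1.04, and ZFC3H1 of the exosome adaptor for polyadenylated RNA. ZFC3H1 was at 46.8 ± 10.3 CPM with DMSO and 23.4 ± 8.49 CPM with NCD (SD, n = 3). Its log2 fold change of -1.00004 ± 0.24 (SE) lay almost exactly at the fold threshold of 1. Scaling by library totals or by upper quartiles, or leaving out NCD 2, left 1 of these 3 calls. Of the 8 RNA-binding partners, 2 fell, PUM2 and RBMX, and none rose (median -0.51), beside 17.5% of all tested genes called lower, and the same settings left 1 of the 2 calls. KHDRBS1, known to bind NORAD and to bring Pumilio proteins to it, had a log2 fold change of -0.53 ± 0.05 (SE), and ELAVL1, which binds OIP5-AS1, of -0.50 ± 0.06.

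Among 60 other named long noncoding RNAs, 39 could be tested, of which 13 fell and 2 rose, with a median of -0.12. In all 38.5% of the 39 were called, beside 31.0% of all tested genes and 33.6% of the tested genes annotated as long noncoding. By direction, 17.5% of all tested genes were called lower and 13.5% higher. Of the 1647 tested genes annotated as long noncoding, 251 were called lower and 302 higher. The number that rose was 6 when libraries were scaled by their totals and 5 with upper-quartile scaling. The falls with the smallest p were MIR4435-2HG at -2.37, DLEU2 at -2.31, CYTOR at -1.60, MIR100HG at -2.84 and LUCAT1 at -1.41 on the log2 scale. MIR4435-2HG and CYTOR are near-identical copies, so the split of reads between them is uncertain. These 5 genes span 143.2 to 528.4 kb. The rises were NBR2, the divergent neighbour of BRCA1, from 3.60 ± 0.684 to 11.4 ± 1.03 CPM (SD, n = 3), a log2 fold change of 1.66 ± 0.16 (SE), and RN7SK, the RNA that holds the elongation factor P-TEFb inactive, at 1.18 ± 0.19. RN7SK was at only 1.75 ± 0.152 CPM with DMSO and has many near-copies in the genome, so its value is uncertain.

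**Figure D5:**
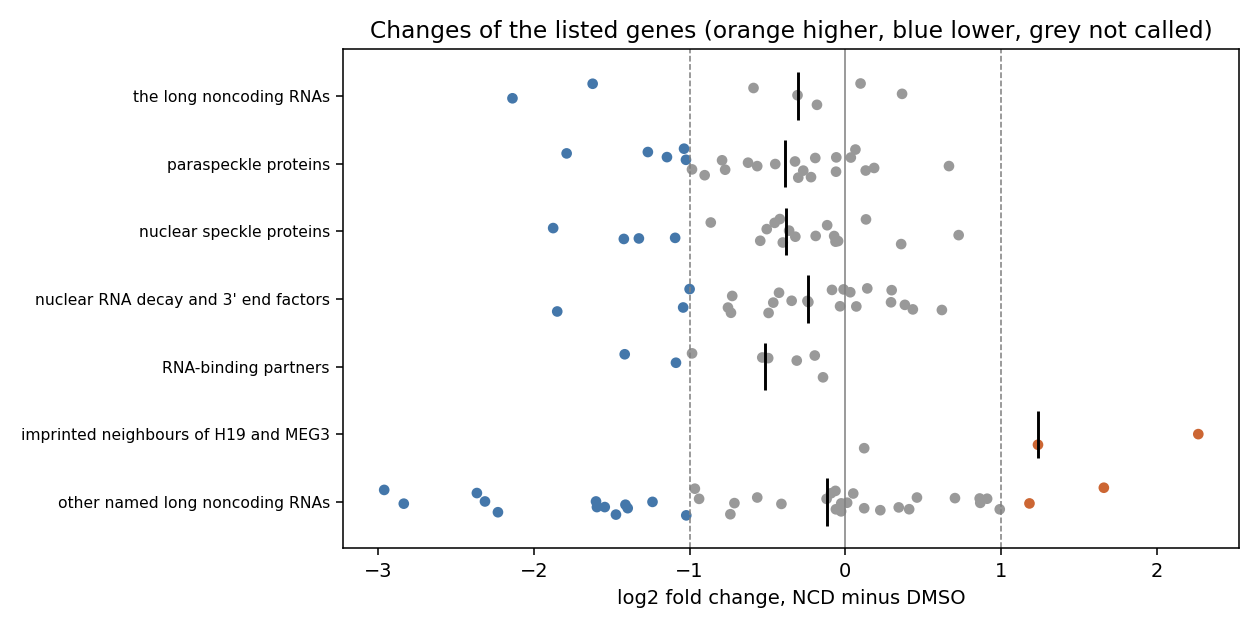
Log2 fold change (NCD minus DMSO) of each tested gene of the lists, a row per list, with called genes in orange (higher) or blue (lower), others in grey, the list median as a black line and dashed lines at the fold threshold of 1. Called genes lie on the lower side in all lists but the imprinted neighbours (2 higher) and the other named long noncoding RNAs (2 higher, 13 lower).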

How the data were processed

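RNA-seq of 6 MDA-MB-231 libraries was analysed, 3 with NCD and 3 with DMSO. The authors aligned reads with HISAT2 and estimated counts per Ensembl gene with RSEM, and the deposited values are these expected counts, without normalization. The submitters' notes name GRCh38. The annotation release and strand setting are not given in the sources used here. In each library 25 lines held no gene and were skipped. GENCODE 29 (58228 of 63241 identifiers) gave names, spans and transcripts, and RefSeq gave promoters and microRNAs. RefSeq held a promoter entry for 7 of the 9 genes.

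After rounding, the comparison was fitted in edgeR 4.0.16 under R 4.3.3 (filterByExpr, TMM with factors from 0.911 to 1.09, glmQLFit and glmQLFTest, Benjamini-Hochberg adjustment over all 15295 tested genes). Standard errors were derived from the F statistic (the size of the log2 fold change over the root of F), and deviations from group means used a pseudocount of 0.1 CPM. Libraries of a group were not alike within sampling noise (chi-square per degree of freedom at least 2.05). On simulated data, 193 of 195 changed genes were recovered among 15034, with 0 false calls. The simulation gave every gene the same dispersion, changed few genes and held no library that stands apart. It therefore does not give the error rates in these data. Totals from 18223594 to 21629653 leave genes with a few counts unmeasured. Intervals and the limit of 3 counts for a count of 0 cover counting error only.

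The members and the gene lists were chosen with earlier results of these data known. Named are the 9 genes, their nearest tested protein-coding neighbours, overlapping genes with counts, the RNA-binding partners and imprinted neighbours, and of each other list up to 3 called genes with the smallest p in each direction (5 for other long noncoding RNAs). Alternatives were DESeq2 1.42.0, limma-voom 3.58.1, library totals, DESeq2 size factors, upper quartiles, a minimum of 10 counts in all libraries or no minimum, calls on p alone, a block for the replicate number, a prior count raised to 2, overlapping genes added to the members, and each library left out in turn. A few genes under the naming rule are not reported here. Exact permutation tests were two-sided and used scipy 1.17.1, and motif counts are descriptions.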

Additional observations from a re-analysis of the deposited data

How the results depend on the processing

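LINC-PINT and PVT1 were lower and called in the fit reported and under all alternatives. Over all genes the number called was 4736 (4653 to 5049 with 1 library left out in turn), 2067 higher (2014 to 2136) and 2669 lower (2608 to 3005). Of the 9 long noncoding RNAs, of which 7 were tested, 2 were called in every leave-one-out fit. Of 116 tested genes of the lists together, 31 were called in the fit reported (28 to 36 with 1 library left out). The share over all tested genes was 31.0%. With no fold threshold, 10602 of 15295 tested genes (69.3%) were called, 5393 higher and 5209 lower. The gene lists then held 88 calls among 116 tested genes, to be read beside that 69.3%. Calls were 17 lower and 2 higher of 24 paraspeckle proteins, and 13 lower and 3 higher of 20 speckle proteins. Of 23 decay factors, 12 were lower and 5 higher, and of 8 partners 6 were lower. Of 39 other long noncoding RNAs, 19 were lower and 9 higher. Of the 9 long noncoding RNAs, 1 was called higher, OIP5-AS1 at 0.36. With no filter, 1 was called higher (H19). A minimum of 10 counts in all libraries left 1376 genes higher and 1 imprinted neighbour, since fewer genes were tested. Library totals and upper quartiles raised the median log2 fold change of all genes by 0.20 and 0.13 and the share of calls that were higher from 43.6% to 56.1% and 52.2%, with 2 and 3 paraspeckle proteins lower, 1 and 1 decay factors, 1 and 1 partners, and 6 and 5 other long noncoding RNAs higher. With 1 library left out, calls ran from 1 to 3 for lower decay factors and from 1 to 3 for lower partners, with 1 in each without NCD 2. The sign turned for MALAT1 without DMSO 1 (-0.19), without NCD 3 (-0.37) and with 2 against 2 libraries (-0.13, chosen after seeing the data), over a leave-one-out range of -0.37 to 0.32, and for NORAD with library totals (0.0164). The causes were not tested beyond this. The labels do not say whether the replicate numbers pair the samples. Correlations of deviations between libraries of the same number were 0.22, -0.19 and 0.02, too few values to decide it. With the numbers as a block 4723 genes were called, 2 of them among the 9. The adjusted p of NEAT1 by edgeR was then 0.00595 at a log2 fold change of -0.60. Over alternatives the adjusted p by edgeR ran from 3.7e-10 (no filter) to 0.209 (library totals) for NEAT1. For TUG1 it ran from 4.6e-06 (2 against 2 libraries, chosen after seeing the data) to 0.567 (library totals). Without a filter the standard error of NEAT1 was 0.087, beside 0.243 in the fit reported, so p-values of the fit without a filter need caution. Depth limits H19 and MEG3.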
